A study of Mus musculus with 4 samples.

Results

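The BCL2 family decides whether the mitochondrial outer membrane is opened during apoptosis, and 10 of its mouse genes were followed in J558 tumours treated with the CDC7 inhibitor TAK-931. The members were the 10 rows, of 24421 gene rows in the count tables, that carried the symbols Bcl2, Bcl2l1 and Mcl1 (anti-apoptotic), Bax and Bak1 (pore-forming), or Bid, Bad, Bbc3, Pmaip1 and Bcl2l11 (BH3-only). J558 is a mouse plasmacytoma line, here grown under the skin of female BALB/c mice, and TAK-931 blocks CDC7, the kinase that starts DNA replication origins. The control group received oral 0.5% methylcellulose (Vehicle) and the treated group oral TAK-931 at 60 mg/kg once a day, and tumours of both groups were collected on day 6. Each group held 2 bulk RNA-seq libraries, named Vehicle-1, Vehicle-2, TAK-931-1 and TAK-931-2. The study's methods give female mice of 4 weeks of age. A whole tumour contains host cells beside J558 cells, so fewer cells of a type and less RNA per cell cannot be told apart in any value below.

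In living cells the anti-apoptotic proteins hold the pore-forming proteins BAX and BAK1 in check at the mitochondrial membrane. BH3-only proteins sense stress, bind the anti-apoptotic proteins through a short helix called the BH3 domain, and so release BAX and BAK1, which then let cytochrome c out and start the caspases. Plasma cells and myeloma cells are known to depend on MCL1 for survival. Much of the regulation of this family acts on protein stability, location and binding, none of which RNA-seq measures.

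The stretch that codes for the core of the BH3 domain is shown for 9 members, since this short sequence occurs in all 3 classes. Each run holds 39 coding bases of the reference genome (GRCm38, GENCODE transcripts), 5′ to 3′ on the coding strand, and the capitals mark the codon of the core leucine and the codon of the aspartate that stands 5 codons further on.

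Bcl2 (chr1:106712572-106712610, minus strand, exon 1 of 2): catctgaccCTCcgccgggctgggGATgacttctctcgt
Bcl2l1 (chr2:152829694-152829732, minus strand, exon 2 of 3): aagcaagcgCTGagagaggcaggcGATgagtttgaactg
Mcl1 (chr3:95659427-95659465, plus strand, exon 1 of 3): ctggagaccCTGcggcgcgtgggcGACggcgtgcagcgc
Bax (chr7:45465994-45466032, minus strand, exon 3 of 6): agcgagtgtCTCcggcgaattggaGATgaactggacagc
Bak1 (chr17:27022528-27022566, minus strand, exon 4 of 6): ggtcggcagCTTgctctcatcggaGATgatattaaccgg
Bid (chr6:120897286-120897324, minus strand, exon 4 of 6): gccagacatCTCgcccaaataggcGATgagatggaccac
Bad (chr19:6950783-6950821, plus strand, exon 3 of 4): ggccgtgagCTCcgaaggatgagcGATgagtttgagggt
Bbc3 (chr7:16313764-16313802, plus strand, exon 3 of 4): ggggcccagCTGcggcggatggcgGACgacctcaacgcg
Bcl2l11 (chr2:128147141-128147179, plus strand, exon 3 of 4): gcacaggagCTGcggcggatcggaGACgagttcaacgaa

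The core leucine was coded by CTC in 4 of these 9 members, by CTG in 4 and by CTT in Bak1, and the aspartate by GAT in 6 and by GAC in 3 (Mcl1, Bbc3 and Bcl2l11). Bbc3 and Bcl2l11 shared 26 of the 39 bases, the most of any pair, whereas Bcl2 and Bid shared 14, the fewest. The closest pair in this stretch, Bbc3 and Bcl2l11, lay on opposite sides of Vehicle in transcript level in both treated tumours.

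The libraries held between 16487902 and 19589339 counts, and a count of 3, taken as the floor, stood for 0.158 to 0.180 CPM (counts scaled to a common library size). The scaling here was TMM, which sets library sizes so that most genes do not differ. TAK-931-1 stood apart from the other libraries. Across 13669 tested genes its log2 CPM values had a Pearson r of 0.791 to 0.865 with the other 3 libraries, against 0.939 to 0.977 among those 3, a description across genes that share each library. The tumour label was checked with 10 plasma cell and J558 markers, of which Trap1a measured 1127, 1095, 356 and 1235 CPM in Vehicle-1, Vehicle-2, TAK-931-1 and TAK-931-2. In the same order Ptprc, the pan-leukocyte marker CD45, measured 36.6, 20.8, 633 and 128 CPM, so both treated tumours held more leukocyte RNA and TAK-931-1 held the most. The cell type label names a B lymphocyte, and the plasma cell markers Sdc1 and Jchain were at 241 CPM or more in every library.

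All 10 members were tested, and none had an adjusted p under 0.05 by edgeR's quasi-likelihood test with Benjamini-Hochberg adjustment over all genes, a rule that called 0 of the 13669 genes (0%). At an unadjusted p under 0.05, 1 member was higher in TAK-931 tumours (Bcl2l1), where 11.6% of all genes were, and 1 was lower (Bbc3), where 6.55% of all genes were. The treated and Vehicle libraries did not overlap for 2 members that were higher (Bcl2l1 and Bcl2l11, against 30.0% of all genes) and 2 that were lower (Bcl2 and Bbc3, against 32.7% of all genes). These shares lay near those of all genes. By DESeq2, 2 of the 10 members passed an adjusted p under 0.05, against 11.0% of the genes it gave a value. They were Bcl2l1 among genes called higher (9.78% of all) and Bbc3 among genes called lower (1.18% of all). The median log2 fold change of the members was -0.02, beside 0.02 for all tested genes. With 2 libraries a group, the p-values measure only the spread between these tumours, and an exact permutation test of a single value cannot give a two-sided p below 0.333.

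**Figure D1:**
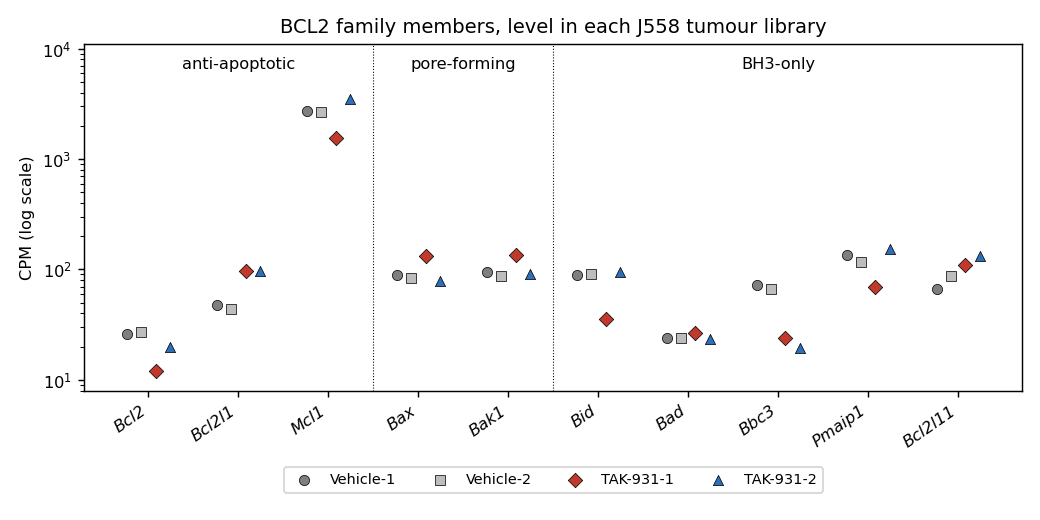
Level of each member in each of the 4 libraries, in CPM on a log axis, with the members grouped by role. Both treated libraries lie above both Vehicle libraries for Bcl2l1 and Bcl2l11 and below them for Bcl2 and Bbc3, and for the other 6 members the treated and Vehicle libraries overlap.

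Among the anti-apoptotic members, Bcl2l1 (BCL-XL) was higher and Bcl2 was lower in both treated tumours, whereas Mcl1 went in opposite directions in them. Bcl2l1, at chr2:152758732-152831728 on the minus strand, measured 47.3 and 44.0 CPM in Vehicle-1 and Vehicle-2 and 96.6 and 97.0 CPM in TAK-931-1 and TAK-931-2. The treated tumours lay at 2.12 and 2.13 times the Vehicle mean of 45.7 ± 2.35 CPM (SD, n = 2), and they differed from each other by less than the Vehicle tumours did. The log2 fold change was 1.08 (SE 0.20), with an unadjusted p of 0.00415 and an adjusted p of 0.275 by edgeR. DESeq2 gave an adjusted p of 0.00919, and the adjusted p of the other tests that used all 4 libraries reached up to 0.342. Of all tested genes, 0.505% had an unadjusted p as small, while 22.1% had a log2 fold change as large or larger. The size of the difference was thus common, and so small an unadjusted p was not. Relative to the mean log2 CPM of the 10 plasma cell and J558 markers, a scale chosen after the data were seen, Bcl2l1 differed from Vehicle by 2.27 in TAK-931-1 and by 0.78 in TAK-931-2, so the close agreement of the treated tumours was not kept on that scale. The gene lies opposite Cox4i2 without a shared exon base.

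Bcl2, the founding survival gene of the family at chr1:106538178-106714290 on the minus strand, was the lowest member per transcript length in every library. It measured 26.3 and 27.1 CPM in the Vehicle tumours, against 12.0 and 19.7 CPM in the treated tumours TAK-931-1 and TAK-931-2. The groups did not overlap, but the treated tumours differed between themselves more than the nearer one differed from Vehicle. Its log2 fold change of -0.75 (SE 0.36) had an adjusted p of 0.310 by edgeR. On the scale relative to the plasma cell and J558 markers, Bcl2 differed from Vehicle by 0.04 in TAK-931-1 and by -0.74 in TAK-931-2.

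Mcl1, the labile survival protein of plasma cells, at chr3:95658721-95663178 on the plus strand, was by far the most abundant member. It measured 2706 and 2690 CPM in the Vehicle tumours, against 1557 and 3475 CPM in the treated tumours TAK-931-1 and TAK-931-2. One treated tumour thus lay below both Vehicle tumours and the other above both, while the Vehicle tumours differed by 0.01 on the log2 scale. These opposite directions were not kept relative to the plasma cell and J558 markers, where Mcl1 differed from Vehicle by 0.39 in TAK-931-1 and by 0.06 in TAK-931-2. The log2 fold change of -0.10 (SE 0.45) had an adjusted p of 0.905 by edgeR. Fitted one at a time, TAK-931-2 gave a log2 fold change of 0.36 (adjusted p 0.00683, edgeR) and TAK-931-1 gave -0.82 (adjusted p 0.000596, edgeR), where a lone treated tumour was assumed to vary like the Vehicle pair.

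The pore-forming members, which build the channel in the outer membrane once they are set free, were higher in TAK-931-1 and not in TAK-931-2. Bax, at chr7:45461695-45466898 on the minus strand, measured 89.8 and 83.9 CPM in the Vehicle tumours, against 132 and 79.3 CPM in the treated tumours TAK-931-1 and TAK-931-2. Bak1, at chr17:27019812-27028626 on the minus strand, measured 95.4 and 86.6 CPM, then 135 and 91.8 CPM in the same order. TAK-931-1 stood above both Vehicle tumours in both genes, while TAK-931-2 lay between them for Bak1 and just below them for Bax. Relative to the plasma cell and J558 markers, Bax differed from Vehicle by 1.79 and -0.43 and Bak1 by 1.76 and -0.29 in the treated tumours, TAK-931-1 first. The log2 fold changes were 0.28 (SE 0.32, adjusted p 0.606) for Bax and 0.32 (SE 0.27, adjusted p 0.508) for Bak1 by edgeR.

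Among the BH3-only members, Bbc3 was lower and Bcl2l11 higher in both treated tumours, Bid and Pmaip1 were lower in TAK-931-1 alone, and Bad was nearly level. Bbc3 encodes PUMA, a p53 target that binds every anti-apoptotic member, and lies at chr7:16309583-16318334 on the plus strand. It measured 72.9 and 66.7 CPM in Vehicle-1 and Vehicle-2, against 23.8 and 19.3 CPM in the treated tumours TAK-931-1 and TAK-931-2. Both treated tumours were thus at 0.341 and 0.277 times the Vehicle mean of 69.8 ± 4.44 CPM (SD, n = 2), a gap many times the spread within either group. The log2 fold change was -1.69 (SE 0.24), with an unadjusted p of 0.00135 and an adjusted p of 0.275 by edgeR. DESeq2 gave an adjusted p of 0.000432, and the other tests with all 4 libraries gave up to 0.342. Of all tested genes, 0.0805% had an unadjusted p as small and 0.856% a log2 fold change as low, so Bbc3 was the member farthest from the bulk of genes. The log2 fold change stayed between -1.86 and -1.57 when any 1 library was left out. The plasma cell and J558 markers were also lower in TAK-931-1, by a mean log2 CPM difference of -1.19, and slightly higher in TAK-931-2, by 0.30. Relative to their mean, Bbc3 differed from Vehicle by -0.36 in TAK-931-1 and by -2.15 in TAK-931-2 on the log2 scale. In TAK-931-2, 3 of the 10 markers were below both Vehicle tumours and 7 were above both, and the part of tumour cell content in the Bbc3 difference was not tested.

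Bcl2l11 encodes BIM, a strong activator that is kept low by growth factor signalling, and lies at chr2:128126038-128162547 on the plus strand. It measured 66.2 and 86.6 CPM in the Vehicle tumours, against 110 and 133 CPM in the treated tumours TAK-931-1 and TAK-931-2. The groups did not overlap, though the gap of TAK-931-1 to the nearer Vehicle tumour was only a little wider than the gap between the Vehicle tumours. Its log2 fold change of 0.67 (SE 0.25) had an adjusted p of 0.276 by edgeR. Relative to the plasma cell and J558 markers, Bcl2l11 differed from Vehicle by 1.73 in TAK-931-1 and by 0.51 in TAK-931-2, a mean of 1.12 on the log2 scale.

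Bid, which links death receptors to mitochondria once caspase 8 has cut it, lies at chr6:120893119-120916820 on the minus strand and measured 89.4 and 90.8 CPM in the Vehicle tumours, against 35.9 and 95.4 CPM in the treated tumours TAK-931-1 and TAK-931-2. Pmaip1 encodes NOXA, which binds MCL1, lies at chr18:66458604-66465558 on the plus strand, and measured 134 and 116 CPM, then 69.5 and 152 CPM. In both genes TAK-931-1 was below and TAK-931-2 above the Vehicle tumours, the arrangement also seen in Mcl1 and in 6 of the 10 plasma cell and J558 markers. Relative to those markers, Bid differed from Vehicle by -0.14 and -0.22 and Pmaip1 by 0.34 and -0.02 in TAK-931-1 and TAK-931-2, so this arrangement was not kept on that scale. Their log2 fold changes of -0.46 (SE 0.51) for Bid and -0.18 (SE 0.43) for Pmaip1 had adjusted p values of 0.601 and 0.818 by edgeR. Bad, which is held inactive by phosphorylation and lies at chr19:6941861-6951905 on the plus strand, measured 24.1, 23.9, 26.8 and 23.6 CPM in the order of the libraries above. Its log2 fold change was 0.07 (SE 0.25, adjusted p 0.878, edgeR). Bad shares 517 exon bases with Gpr137 on the opposite strand, and the strand setting of the counting was not given in the sources used here.

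**Figure D2:**
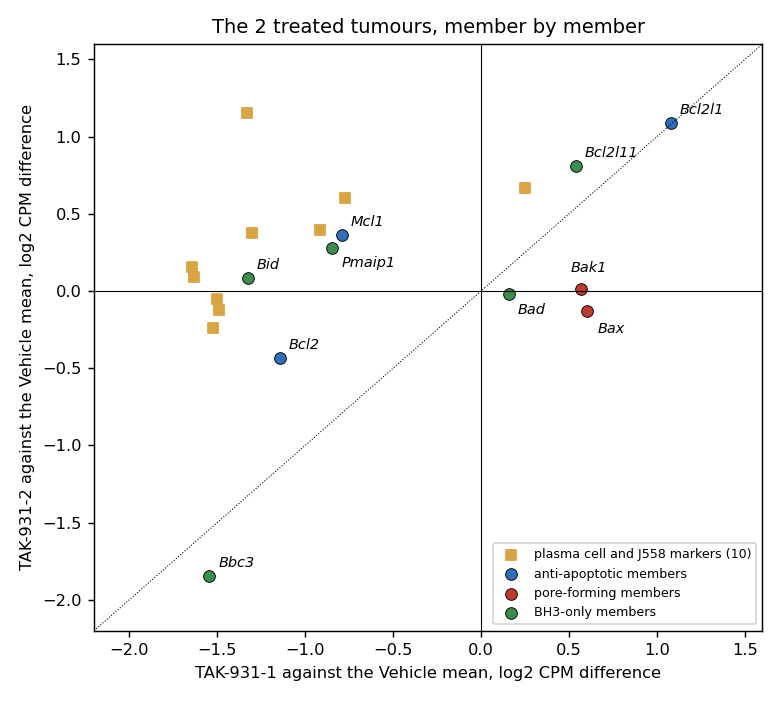
Difference of each treated tumour from the Vehicle mean in log2 CPM, TAK-931-1 on the x axis and TAK-931-2 on the y axis, with members as circles coloured by role, plasma cell and J558 markers as squares and equality as a dotted line. Bcl2l1 (1.08 and 1.09) and Bbc3 (-1.54 and -1.85) lie close to the line, and Mcl1, Bid and Pmaip1 lie left of 0 in TAK-931-1 and at or above 0 in TAK-931-2, as most of the markers do.

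**Figure D3:**
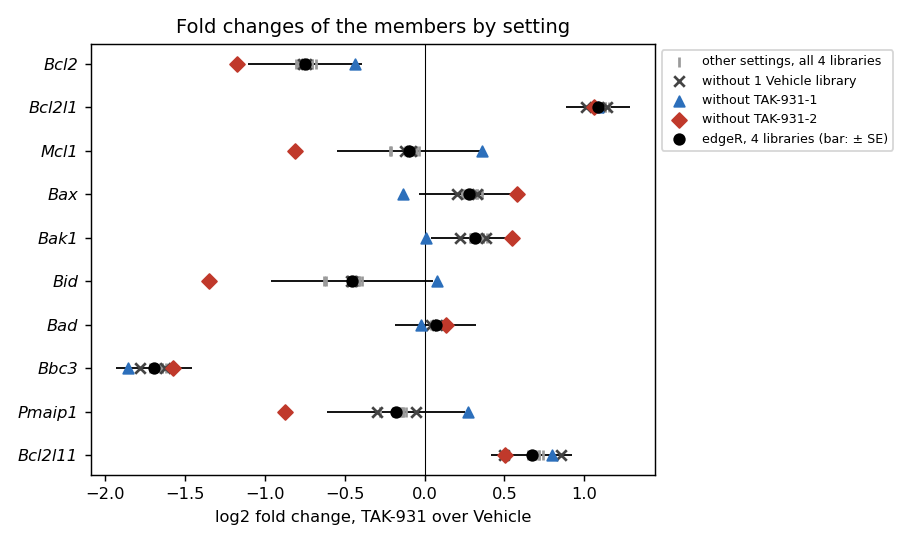
Log2 fold change of each member, TAK-931 over Vehicle, on the x axis, with the edgeR estimate and its standard error in black and other settings as coloured marks. Mcl1, Bax, Bid, Bad and Pmaip1 changed sign without TAK-931-1, and Bcl2l1, Bbc3, Bcl2l11, Bcl2 and Bak1 kept their sign in every setting plotted.

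Fitted without TAK-931-1, 4 of the 10 members passed an adjusted p under 0.05 by edgeR (Bcl2l1, Mcl1, Bbc3 and Bcl2l11), against 28.7% of the tested genes. Fitted without TAK-931-2, 8 did, against 58.1% of the tested genes, the exceptions being Bad and Bcl2l11. Both fits share the Vehicle tumours.

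The 250 bases before the start site are shown for Bbc3 and Bcl2l1, the 2 members with an unadjusted p under 0.05, one lower and one higher. The sequences come from the RefSeq table of GRCm38.p6, matched by symbol for 9 members and cut before the first transcribed base, and both windows end at the base before the gene's start in the count tables. The table holds 3 windows each for Bbc3 and Bcl2l1, one for each annotated start site, and the others were not searched gene by gene. Capitals mark matches on either strand to the GC box, GGGCGG, the letters bound by the SP1 family of activators.

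Bbc3 (chr7:16309333-16309582, plus strand): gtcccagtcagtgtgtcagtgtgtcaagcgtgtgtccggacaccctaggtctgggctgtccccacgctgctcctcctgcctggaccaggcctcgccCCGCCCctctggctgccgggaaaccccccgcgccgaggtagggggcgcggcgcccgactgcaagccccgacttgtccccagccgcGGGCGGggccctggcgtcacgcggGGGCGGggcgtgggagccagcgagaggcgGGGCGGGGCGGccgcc
Bcl2l1 (chr2:152831729-152831978, minus strand): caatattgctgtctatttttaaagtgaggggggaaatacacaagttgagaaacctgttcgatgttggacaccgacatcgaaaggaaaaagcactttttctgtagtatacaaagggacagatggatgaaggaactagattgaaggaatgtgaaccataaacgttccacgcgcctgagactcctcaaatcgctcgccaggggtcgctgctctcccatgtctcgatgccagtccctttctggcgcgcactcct

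The Bbc3 window held 5 GC boxes, a pair of them overlapping, and had a GC content of 76.4%. The Bcl2l1 window held none and had a GC content of 47.6%, against a median of 52.4% over 32817 windows of the same length. At least 1 GC box was found in 32.7% of those windows. Searched on both strands, the E-box CACGTG (in 6.02% of windows), the GAS element TTCNNNGAA (7.01%), the AP-1 site TGANTCA (6.75%), the CARE element TGATGNAA (3.45%) and the FOXO site GTAAACA (3.16%) were absent from both windows. Of the windows not shown, Bcl2 held 7 GC boxes, Bid, Bad and Bcl2l11 held 3 each, Bax 2, Mcl1 1 and Bak1 0, so members that were higher and members that were lower both held them. The Bcl2l11 window held 1 FOXO site and the Bax window 1 E-box. A match describes letters and is not evidence of binding.

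Levels were compared between genes per length, as CPM per kilobase of exon (RPKM). Mcl1 held the first place and Bax the next in all 4 libraries. Mcl1 measured 776, 771, 447 and 997 RPKM, and Bax 103, 96.6, 152 and 91.2 RPKM, in Vehicle-1, Vehicle-2, TAK-931-1 and TAK-931-2. In the Vehicle tumours Bak1, Bid and Pmaip1 followed at 43.2 to 50.7 RPKM and could not be ordered beyond their spread. Bbc3 came next at 36.9 and 33.7 RPKM, then Bad at 15.8 and 15.7 RPKM, Bcl2l1 at 14.8 and 13.8 RPKM, Bcl2l11 at 9.27 and 12.1 RPKM, and Bcl2 at 3.40 and 3.50 RPKM. In the treated tumours Bcl2l1 stood at 30.2 and 30.4 RPKM and Bbc3 at 12.1 and 9.77 RPKM. Bbc3 thereby stood in the sixth place in both Vehicle tumours and in the ninth in both treated tumours, below Bcl2l11 at 15.4 and 18.6 RPKM. Bcl2l1 stood in the eighth place in Vehicle, the fourth in TAK-931-1 and the sixth in TAK-931-2.

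Summed by role, the anti-apoptotic members held 71.9% and 72.9% of the RPKM of the 10 members in the Vehicle tumours, 60.8% in TAK-931-1 and 78.1% in TAK-931-2. The pore-forming members held 13.7% and 12.9%, then 27.8% and 10.4%. The BH3-only members held 14.5% and 14.2%, then 11.5% and 11.5%. Only the BH3-only share separated the groups, being lower by 2.84 percentage points on average (exact permutation test, two-sided, p = 0.333, the smallest this design allows). Without division by exon length the BH3-only share was 11.55% and 11.58% in Vehicle, 12.1% in TAK-931-1 and 10.1% in TAK-931-2, so the groups then overlapped, with a mean difference of -0.46 percentage points. The log2 ratio of the pore-forming and BH3-only sum to the anti-apoptotic sum was -1.35 and -1.43 in the Vehicle tumours, -0.63 in TAK-931-1 and -1.83 in TAK-931-2. The treated tumours thus lay on either side of Vehicle (exact permutation test, two-sided, p = 1). Mcl1 alone held 70.2%, 71.3%, 56.7% and 75.6% of the members' RPKM. With Mcl1 left out of the sum, a step chosen after the values were seen, the ratio was 4.09 and 4.09 in the Vehicle tumours and 3.28 and 3.13 in the treated tumours. The remaining anti-apoptotic sum, Bcl2 and Bcl2l1, was 18.2 and 17.3 RPKM in Vehicle and 31.8 and 32.9 RPKM under TAK-931. Within roles, and again chosen after the values were seen, the log2 ratio of Bcl2l1 to Bcl2 was 2.13 and 1.98 in Vehicle and 4.28 and 3.57 under TAK-931. The log2 ratio of Bcl2l11 to Bbc3 was -1.99 and -1.48 in Vehicle and 0.36 and 0.93 under TAK-931, so that the RPKM order of these BH3-only transcripts was the reverse in the treated tumours. Without division by exon length the Vehicle tumours had no common order. Bcl2l11 was below Bbc3 in Vehicle-1 (66.2 against 72.9 CPM) and above it in Vehicle-2 (86.6 against 66.7 CPM).

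**Figure D4:**
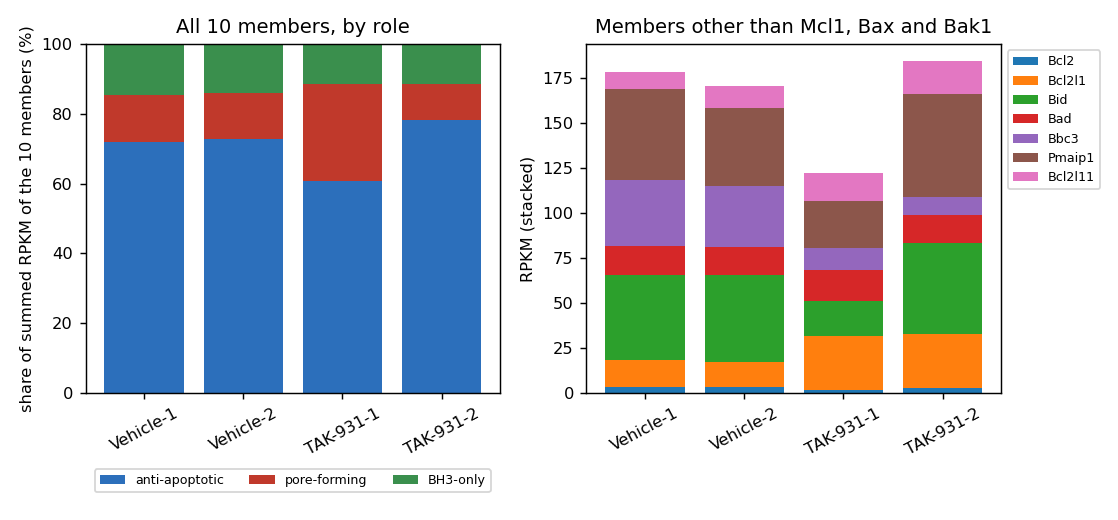
Left, share of the summed RPKM of the 10 members held by each role in each library, in percent. Right, stacked RPKM of the 7 members other than Mcl1, Bax and Bak1, in which the Bcl2l1 segment is 30.2 and 30.4 RPKM in the treated tumours against 14.8 and 13.8 RPKM in Vehicle, and the Bbc3 segment is 12.1 and 9.77 RPKM against 36.9 and 33.7 RPKM.

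Genes that act with the members were read from 4 lists of 55 genes in all, 52 of them tested, and none passed an adjusted p under 0.05 by edgeR. Among 16 other BCL2 family genes, 13 were tested, and 3 were higher and 3 lower at an unadjusted p under 0.05, where 11.6% and 6.55% of all genes were. Their groups did not overlap for 4 higher and 4 lower genes, against 30.0% and 32.7% of all genes, and their median log2 fold change was -0.26. The 3 highest were the haematopoietic survival genes Bcl2a1b, Bcl2a1d and Bcl2a1a, near-identical copies whose reads may be split between them. Bcl2a1b measured 6.88 and 2.16 CPM in the Vehicle tumours, against 64.6 and 13.9 CPM in the treated tumours TAK-931-1 and TAK-931-2. Their log2 fold changes ran from 2.598 to 3.118, all with an adjusted p of 0.275 by edgeR, and in each the order of the libraries was that of Ptprc. Bcl2a1c, Bcl2l10 and Hrk had 0 counts in every library.

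Outside the rule for named genes, and chosen after their values were seen, the BH3-only genes Bmf and Bik were lower like Bbc3. Bmf, which responds to loss of attachment, measured 36.2 and 44.1 CPM in the Vehicle tumours and 13.7 and 13.5 CPM in the treated tumours (log2 fold change -1.56, SE 0.26). Bik, an endoplasmic reticulum BH3-only gene, measured 27.2 and 28.4 CPM, then 10.3 and 15.5 CPM (log2 fold change -1.11, SE 0.33). Their adjusted p values by DESeq2 were 0.00229 and 0.105. Adding the other family genes by role turned the log2 ratio of pro-apoptotic to anti-apoptotic RPKM, TAK-931 minus Vehicle, from 0.16 to -0.15. The BH3-coding stretch of both is given in the same way as for the members.

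Bmf (chr2:118545097-118545135, minus strand, exon 4 of 5): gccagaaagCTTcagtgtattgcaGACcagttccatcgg
Bik (chr15:83543075-83543113, plus strand, exon 3 of 5): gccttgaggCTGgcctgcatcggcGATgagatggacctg

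Downstream of the membrane, the 13 genes of the apoptosome and caspase list held 0 higher and 2 lower at an unadjusted p under 0.05 (all genes, 11.6% and 6.55%). Their groups did not overlap for 1 higher and 6 lower genes (all genes, 30.0% and 32.7%), and the median log2 fold change was -0.29. Endog, a mitochondrial nuclease, measured 30.0 and 29.6 CPM in Vehicle, against 7.01 and 15.9 CPM in the treated tumours TAK-931-1 and TAK-931-2. Diablo, which encodes the IAP antagonist SMAC, measured 64.7 and 65.0 CPM, then 27.8 and 42.7 CPM. Apaf1, the scaffold of the apoptosome, went the other way, at 20.04 and 16.54 CPM, then 58.6 and 27.0 CPM. All 3 were farther from Vehicle in TAK-931-1 than in TAK-931-2.

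The 14 caspase inhibitors and death receptor genes held 5 higher and 0 lower at an unadjusted p under 0.05, beside 11.6% and 6.55% of all genes. Their groups did not overlap for 7 higher genes and 1 lower gene, beside 30.0% and 32.7% of all genes, and the median log2 fold change was 0.41. Cflar encodes FLIP, which blocks caspase 8, and measured 102 and 108 CPM in Vehicle and 214 and 218 CPM under TAK-931. As for Bcl2l1, its treated tumours lay close together in CPM, with a log2 fold change of 1.04 (SE 0.21) and adjusted p values of 0.275 by edgeR and 0.00699 by DESeq2. The mean log2 CPM of the plasma cell and J558 markers differed from Vehicle by -1.19 in TAK-931-1 and by 0.30 in TAK-931-2. The closeness of Cflar in the treated tumours was therefore not kept relative to those markers, as for Bcl2l1. Birc3, an inhibitor of apoptosis induced by NF-kappaB, measured 63.9 and 63.7 CPM, then 91.3 and 160 CPM. Tnfsf10, the death ligand TRAIL, measured 4.39 and 3.84 CPM, then 92.7 and 18.5 CPM, again in the order of Ptprc in the treated tumours.

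Of 12 regulators of BCL2 family levels, 0 were higher and 1 was lower at an unadjusted p under 0.05, against 11.6% and 6.55% of all genes. The groups did not overlap for 3 higher and 4 lower genes, against 30.0% and 32.7% of all genes. The median log2 fold change was 0.08. Atf4, a stress transcription factor, measured 644 and 593 CPM in Vehicle, against 193 and 314 CPM in the treated tumours TAK-931-1 and TAK-931-2 (log2 fold change -1.29, SE 0.33). Trp73, a p53 relative, measured 1.54 and 1.20 CPM, then 10.2 and 1.58 CPM. Foxo3, a transcription factor known to drive Bcl2l11 and Bbc3, measured 22.5 and 26.7 CPM, then 13.9 and 19.2 CPM. Trp53 was given outside the rule for named genes because Bbc3 is a p53 target. It measured 173 and 162 CPM, then 97.7 and 140 CPM (log2 fold change -0.50, SE 0.27, edgeR adjusted p 0.343). Mdm2, of the same list and also outside that rule, went the other way. Its levels were 93.7 and 99.1 CPM, then 120 and 130 CPM (log2 fold change 0.37, SE 0.20, edgeR adjusted p 0.342). The part of p53 in the Bbc3 difference was not tested.

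**Figure D5:**
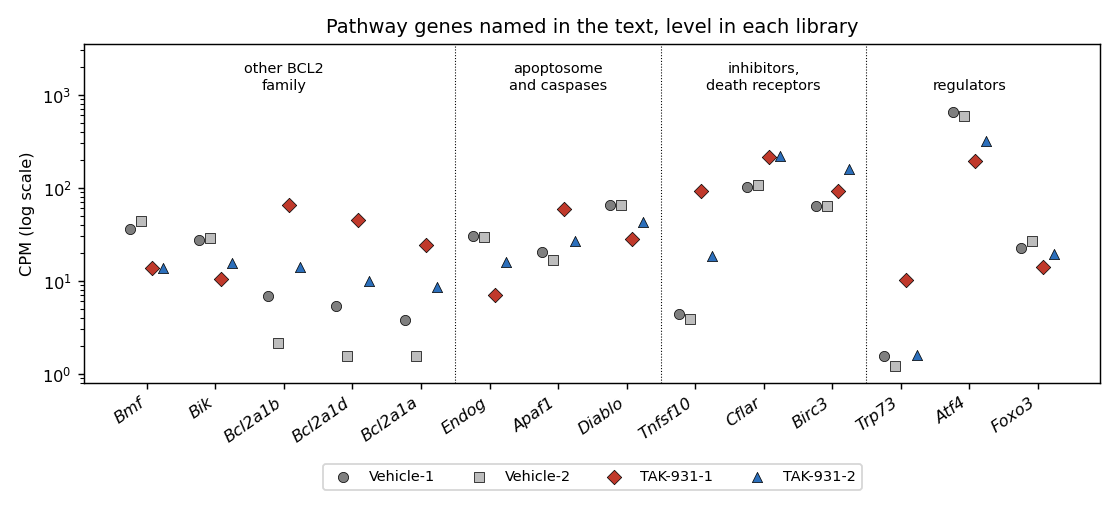
Level of the named pathway genes in each library, in CPM on a log axis, grouped by list. Bmf and Bik lie lower and Cflar higher in both treated tumours, and the Bcl2a1 copies, Apaf1 and Tnfsf10 are highest in TAK-931-1.

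The summed T cell, NK cell, macrophage and fibroblast markers were higher in both treated tumours, and by more in TAK-931-1. The summed CPM of 10 T cell markers was 42.9 and 27.3 in the Vehicle tumours, 1361 in TAK-931-1 and 102 in TAK-931-2, with Cd3e at 1.90, 0.360, 136 and 7.70 CPM. That of 9 macrophage markers was 617 and 523, then 9006 and 1606, with Csf1r at 42.5, 38.2, 588 and 102 CPM. That of 7 fibroblast markers was 1883 and 2138, then 14791 and 5101, with Col1a1 at 701, 740, 5945 and 2107 CPM. The summed NK cell markers ran from 8.21 in Vehicle to 372 in TAK-931-1. The neutrophil markers, 5 of 6 present in the tables, summed to 6.29 and 6.83 CPM in Vehicle, against 128 and 15.2 CPM in the treated tumours, but in TAK-931-2 Csf3r alone gave 15.05 CPM, 3 of the 5 had 0 counts, and S100a8 and S100a9 were below both Vehicle tumours. The 5 mature B cell markers Ms4a1, Pax5, Cd22, Fcer2a and Cr2 summed to 35.4 and 35.4 CPM in Vehicle, against 56.1 and 79.1 CPM in the treated tumours. They did not go one way: Cd22 measured 1.42, 1.32, 41.7 and 11.4 CPM in the order of the libraries above, whereas Ms4a1 measured 30.5, 30.2, 13.3 and 52.7 CPM. Pax5, which defines the B cell lineage before the plasma cell stage, had 0 counts in every library. Endothelial markers were at 224 to 240 CPM in 3 libraries and 771 CPM in TAK-931-1, and skeletal muscle markers at 87.8 and 88.5 CPM in Vehicle, against 685 and 11.4 CPM in the treated tumours TAK-931-1 and TAK-931-2. Adipocyte markers ran from 28.7 to 263 CPM and keratinocyte markers from 2.13 to 37.6 CPM. The plasma cell and J558 markers summed to 10011 and 10591 CPM in Vehicle, against 5002 and 14029 CPM in the treated tumours TAK-931-1 and TAK-931-2, and 9 of the 10 were lowest in TAK-931-1. The part of host cells in the differences of the members was not tested.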

How the data were processed

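RNA of the 4 tumours was extracted with an RNeasy Mini kit and sequenced by a contract laboratory. Per the submitters' processing notes, reads were mapped with STAR 2.6.1c to mm10 and counted with featureCounts (version not given in the sources used here), and the authors deposited 1 table of raw counts per gene for each library. Annotation release, strand setting and handling of read mates were not given in the sources used here. Among gene counts of 1 to 20, 17.9% to 23.9% were odd, so both mates of a pair may have been counted, and a count then overstates the number of fragments. The counts per library ranged from 16487902 to 19589339, and floors cover counting error only.

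From the counts, log2 fold changes, standard errors (the size of the fold change divided by the root of F) and p-values were computed with the robust quasi-likelihood test of edgeR 4.0.16 in R 4.3.3, with TMM scaling, filterByExpr (minimum count 10), treatment as the only term and Benjamini-Hochberg adjustment over 13669 genes. DESeq2 1.42.0 and limma-voom (limma 3.58.1) were alternatives. Log2 CPM used a prior count of 2, and RPKM divided CPM by the summed exon length in the tables. The tests were checked on simulated data. Single values were compared with exact two-sided permutation tests. Where a library was left out, the lone tumour was assumed to vary like the other group. The other alternatives were other scalings and filters, no robust estimation, halved counts, a stricter threshold and a replicate block.

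The members and gene lists were chosen with earlier results of these data known. Named were all members, and in each pathway list up to 3 genes of the largest absolute log2 fold change among those with a mean log2 CPM above 1 and groups that did not overlap. Cell type lists were given as summed CPM with the defining markers Trap1a, Sdc1, Jchain, Ptprc, Cd3e, Csf1r and Col1a1, and Ly6g was not among the rows used here. One marker is not reported here. Coding stretches came from GENCODE transcripts and promoters from RefSeq, both on GRCm38, the sequence of mm10, and the RefSeq start sites lay within 4 bases of those in the tables for 9 members. No sequence is shown for Pmaip1.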

Additional observations from a re-analysis of the deposited data

How the results depend on the processing

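Of all genes, edgeR called 0 at an adjusted p under 0.05 or 0.01, and 0 under other scalings and filters, limma-voom, no robust estimation or halved counts, although 2475 genes had an unadjusted p under 0.05. DESeq2 called 1411 genes, 2 members and 9 of the pathway genes. Its log2 fold changes were 1.13 for Bcl2l1 and -1.65 for Bbc3. With the number in the library name as a replicate block, 144 genes, 1 pathway gene and 0 members were called, and Bbc3 had an adjusted p of 0.0827 (log2 fold change -1.70). No pairing of same-numbered tumours was stated in the sources used here, though the paper took vehicle-1 and TAK-931-1 as its representative allografts. The deviations of same-numbered libraries from the group means had a correlation of 0.0041 over 13669 genes, which cannot show that nothing was shared.

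Leaving out each library in turn gave 0 to 8424 genes, 0 to 8 members and 0 to 37 pathway genes called, and 1 to 9 members at an unadjusted p under 0.05. The counts above 0 came from the fits without TAK-931-1 (3996 genes, 4 members, 17 pathway genes) and without TAK-931-2 (8424, 8 and 37), in which the spread was estimated from the Vehicle pair alone. Without a library, the log2 fold change ran from -1.17 to -0.44 for Bcl2, from 1.01 to 1.14 for Bcl2l1, from -0.82 to 0.36 for Mcl1, from -0.13 to 0.58 for Bax and from 0.011 to 0.55 for Bak1. It ran from -1.35 to 0.079 for Bid, from -0.025 to 0.13 for Bad, from -1.86 to -1.57 for Bbc3, from -0.87 to 0.27 for Pmaip1 and from 0.49 to 0.86 for Bcl2l11. The sign changes of Mcl1 (0.36), Bax (-0.13), Bid (0.079), Bad (-0.025) and Pmaip1 (0.27) all came without TAK-931-1. Relative to the plasma cell and J558 markers, a scale added after the data were seen, Mcl1 (0.23) and Pmaip1 (0.16) changed sign and the other 8 members did not.

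The difference in share, TAK-931 minus Vehicle, ran without 1 library from -11.6 to 5.71 percentage points for anti-apoptotic members, from -2.89 to 14.5 for pore-forming members and from -2.99 to -2.69 for BH3-only members. The last was -0.46 without division by exon length. The log2 ratio of pro-apoptotic to anti-apoptotic RPKM differed by 0.16, and by -0.44 to 0.76 without 1 library. It differed by -0.15 with the family genes named above added by role and by -0.88 without Mcl1. The causes of these changes were not tested.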
